A study of Mus musculus with 51 samples.

Results

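Hoxc4, Hoxc5, Hoxc6, Hoxc8 and Hoxc9 are the central and anterior genes of the HoxC cluster, and these 5 of the 39 Hox genes with deposited log2 RPKM values were followed as mouse embryonic stem cells (mESCs) differentiated. They were chosen by name and are given here in their order along the cluster. RPKM is the number of reads per kilobase of exon, divided by the depth of the library in megareads (M). The time course holds 45 libraries, 23 from Smchd1 wt and 22 from Smchd1 matΔ cells, taken on 6 days from day 0 to day 4 with 3 or 4 libraries a group, and 6 further mESC lines, 3 of each genotype, were profiled in 2i + LIF medium. Cells of both genotypes were male and came from crosses between C57BL/6 and Castaneus mice. Smchd1 wt cells carry a floxed and an intact allele (fl/+). Smchd1 matΔ cells are del/+, with the maternal allele removed in the oocyte by Zp3-Cre, a recombinase active in growing oocytes, and keep the paternal allele. Day 0 cells were in DME + LIF medium, FGF was given from day 0, the Wnt pathway activator CHIR99021 from day 2 and GDF11 from day 3, which directs cells towards neuromesodermal progenitors. The labels place replicates 1 to 3 in line 1 and replicate 4 in line 2, so most libraries of a group share a line, and those of Smchd1 matΔ at days 0 and 2.5 all come from line 1. The study's own account instead describes technical replicates of a pair of lines, which cannot be matched to the libraries here, and the p-values measure only the spread between these libraries, which may be technical. For log2 RPKM values this spread was shared across the 39 Hox genes, including genes without reads, whose spread is set by depth. The sharing was complete for the genotype comparisons at days 2, 2.5 and 3 and for the comparisons of day 2 with day 2.5. There the SE is the same for each gene. In bulk RNA, fewer cells that express a gene and less RNA per cell cannot be told apart.

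Hox genes encode homeodomain transcription factors that give segments of the body axis their identity. They lie in 4 clusters, and in the embryo the genes at the 3′ end of a cluster are switched on earlier and further anterior than those at the 5′ end, an order known as collinearity. The HoxC cluster has no Hoxc1, Hoxc2, Hoxc3 or Hoxc7, so Hoxc4 is its 3′-most gene. Hoxc4 and Hoxc5 act in the neck region, Hoxc6, Hoxc8 and Hoxc9 in the thoracic region and its limb and motor neuron boundaries, and Hoxc10 to Hoxc13 further caudally. SMCHD1 is a chromatin protein that keeps the inactive X chromosome, imprinted genes and other clustered genes silent.

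The members lie on the forward strand of chromosome 15 in GRCm38. The files give Hoxc9 from 102976439 to 102985099, Hoxc8 from 102990607 to 102994111, Hoxc6 from 102998257 to 103011881 and Hoxc4 from 103018934 to 103036852. Hoxc5 is given from 102967443 to 103017429, a span that covers Hoxc9, Hoxc8 and Hoxc6, because 1 of its annotated transcripts starts inside an exon of Hoxc10. The exons of Hoxc5 and Hoxc10 share 166 bases, so reads there cannot be assigned to either gene. If Hoxc10 reads were spread evenly over its exons, at most 1.13 Hoxc5 reads in a library would come from this stretch at days 2.5 and 3, and between 2.28% and 26.2% of the Hoxc5 reads at day 4.

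Hoxc4 was the first member to gain reads in the time course, and its promoter is shown for that reason. RefSeq (GRCm38.p6) gave a promoter for 1 of the 5 members, 250 bases before to 50 after the start site, at chr15:103034145-103034444 on the forward strand, inside the last part of the span that the files give for Hoxc4. The capitals, just after the start site, mark the only match of 5 motifs searched on both strands.
Hoxc4 promoter: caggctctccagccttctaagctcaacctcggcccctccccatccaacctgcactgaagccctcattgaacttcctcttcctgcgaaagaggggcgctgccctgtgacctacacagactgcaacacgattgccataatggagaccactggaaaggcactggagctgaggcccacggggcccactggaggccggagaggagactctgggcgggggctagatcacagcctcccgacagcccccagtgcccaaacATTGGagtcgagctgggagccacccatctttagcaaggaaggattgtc
The match is to the CCAAT box (CCAAT, here on the reverse strand), which 37.4% of 32851 promoters of the same length hold. Motifs of CDX factors (TTTATNG, in 10.9% of promoters), TCF/LEF factors of the Wnt pathway (CTTTGAT, 3.73%) and PBX-HOX pairs (TGATNNAT, 8.85%) and the TATA box (TATAAA, 13.6%) had no match in this window, and none of the motifs overlapped another. The window is 60.3% G and C, against a median of 52.7% over all promoters, and holds 9 CpG dinucleotides against a median of 7.

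All 1755 Hox values of the time course could be turned back into whole reads, within 0.001 reads or a relative error of 6e-06. The reads of the members are given below for days 0 to 2.5, and those of Hoxc6 and Hoxc9 also for day 3. A gene without reads carries the value of 0.9 reads, so its RPKM depends only on depth and is no level. The implied depth ranged from 0.346 to 126.806 M reads a library. The library labelled Smchd1 wt day 2 replicate 4 was the shallowest, and 37 of its 39 Hox genes had no reads. The recovered reads equalled the raw count column of the same name in 7 of 45 libraries, a column of another name only in 35 and no column in 3, so the time course counts entered only as an alternative. In 3 of those 7 libraries, Smchd1 matΔ day 0 replicate 3, Smchd1 wt day 2 replicate 3 and Smchd1 matΔ day 2.5 replicate 3, the counts on genes made up 26.1%, 30.0% and 29.2% of the implied depth, against 80.4% to 97.5% in the other 4, and Pou5f1, a pluripotency factor, lay at 27.4, 29.5 and 21.4 RPKM in them. The labelled cell state was checked in the factor table. Pou5f1 was at 0.0403 RPKM in 1 Smchd1 matΔ library of day 1, replicate 4. It had a median of 416 RPKM in Smchd1 wt and 394 in Smchd1 matΔ cells at day 0 and 28.0 and 40.9 at day 4. Tbra (the gene T), a mesoderm and neuromesodermal progenitor factor, rose from medians of 1.09 and 0.707 RPKM at day 0 to 143 and 142 at day 3, and Cdx2, a caudal regulator, from 0.739 and 0.685 to 63.9 and 61.4.

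**Figure D1:**
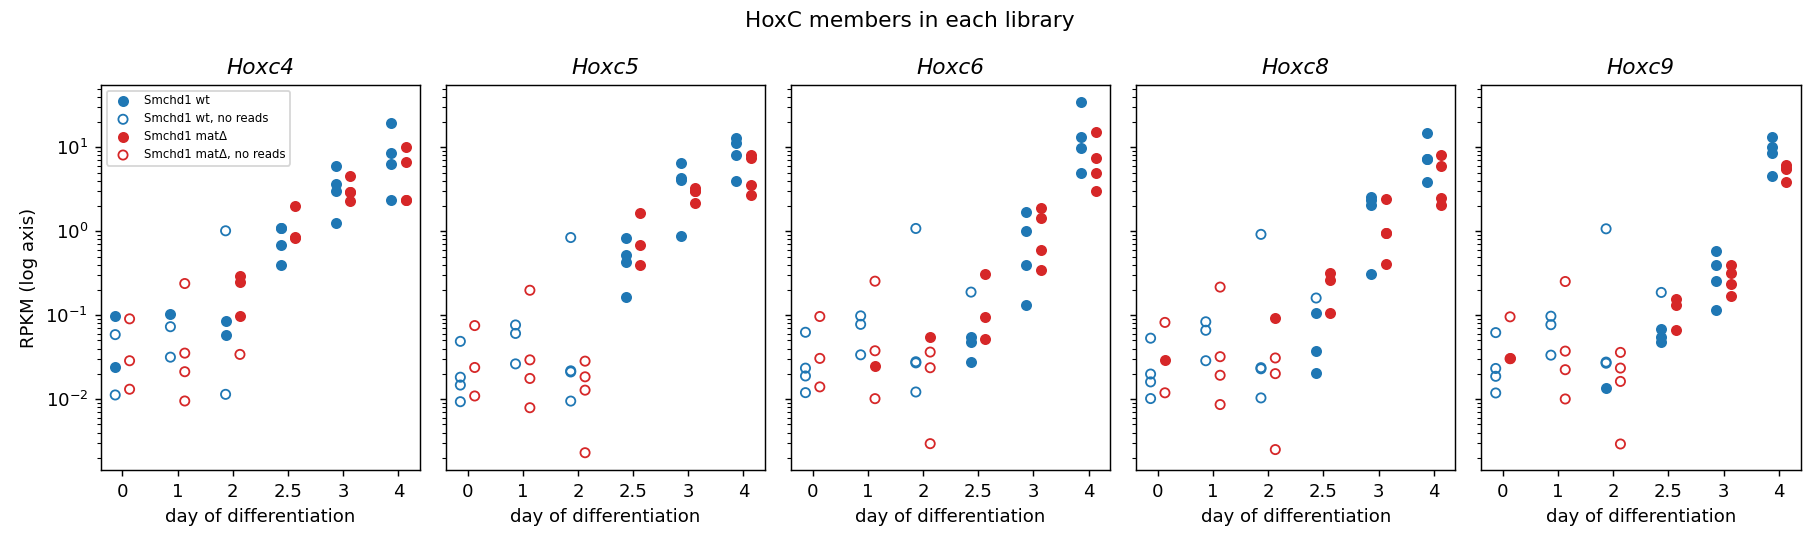
RPKM of each member (log axis) in every library by day of differentiation; blue points are Smchd1 wt, red points are Smchd1 matΔ, and open symbols are libraries in which the gene had no reads. The open symbols fill days 0 to 2, and all 5 members have reads in every library of days 3 and 4.

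In 2i + LIF, where kinase inhibitors and leukaemia inhibitory factor hold mESCs in the ground state, Hoxc4 was the only member with more than 34 reads in a line. Its counts were 88, 388 and 104 in Smchd1 wt lines 1 to 3 and 319, 317 and 91 in Smchd1 matΔ lines 1 to 3, of 27.526 to 126.716 M counted reads a line. Per kilobase of exon and M counted reads this is 0.832 to 1.24 in Smchd1 wt and 0.963 to 1.16 in Smchd1 matΔ lines, and the genotypes overlap. Hoxc5 had counts of 1, 27 and 7 against 34, 15 and 7. Hoxc6 had 0, 16 and 0 against 3, 6 and 7, Hoxc8 had 0, 1 and 0 against 1, 7 and 1, and Hoxc9 had 3, 17 and 5 against 14, 15 and 3. On the same per-length scale no line exceeded 0.0925 for Hoxc5, 0.079 for Hoxc6, 0.0233 for Hoxc8 or 0.0582 for Hoxc9, so Hoxc4 stood above the other 4 members in each of the 6 lines.

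The comparison of the genotypes in 2i + LIF asks whether the deletion changes the members before differentiation starts. Smchd1, the deleted gene, was counted at 107 to 123.8 CPM in Smchd1 wt and 63.71 to 90.65 in Smchd1 matΔ lines. Hoxc4 and Hoxc5 passed the filter on low counts, and neither passed the test: the log2 fold change was -0.02 for Hoxc4 (edgeR quasi-likelihood test, adjusted p = 0.997) and 0.48 for Hoxc5 (edgeR, adjusted p = 0.992). Smchd1 itself, lower by 0.63, was not called either (log2 fold change -0.63, edgeR, adjusted p = 0.992). The lack of a call therefore cannot show that the members do not differ. Over all genes, 0 of 17696 (0%) passed in edgeR, 397 had an unadjusted p under 0.05, and DESeq2 also called 0.

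At days 0, 1 and 2 the members were close to silent. At day 0, Hoxc4 had 5, 0, 1 and 0 reads in Smchd1 wt replicates 1 to 4 and none in the 3 Smchd1 matΔ libraries. Over the Smchd1 matΔ libraries of that day Hoxc8 had 1 read and Hoxc9 had 2 in total, and the remaining values were 0. At day 1 each genotype had 1 read in all on the 5 members. With the libraries of a group pooled, a gene with 0 reads could have reached at most 0.0133 to 0.0632 RPKM at days 0 and 1 (3 reads, counting error only, over both genotypes and the 5 members).

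At day 2, the day on which the Wnt activator was added, Hoxc4 had 0, 3, 2 and 0 reads in Smchd1 wt replicates 1 to 4 and 17, 0, 4 and 80 in Smchd1 matΔ replicates 1 to 4. Where it had reads, its level was 0.0845 and 0.0581 RPKM in Smchd1 wt and 0.291, 0.0986 and 0.246 RPKM in the Smchd1 matΔ libraries. The 3 Smchd1 matΔ libraries with reads lay above both Smchd1 wt libraries with reads. In Smchd1 wt replicate 3, at 0.0581 RPKM, counts on genes made up only 30.0% of the implied depth, which lowers its RPKM. This share is not known for the 3 Smchd1 matΔ libraries, so the ranking is not firm. The library with 80 reads was also the deepest, with 126.8 M reads. The only other reads were 3 of Hoxc6 and 6 of Hoxc8 in Smchd1 matΔ replicate 1 and 1 of Hoxc9 in Smchd1 wt replicate 1, and Hoxc5 had none in any of the 8 libraries. On the deposited log2 RPKM scale Hoxc4 differed by 0.52 ± 1.53 (Smchd1 matΔ minus Smchd1 wt, SE, n = 4 and 4; limma over 39 genes, adjusted p = 0.919), and on the recovered reads by 1.90 (edgeR, adjusted p = 0.522). Of the 39 Hox genes, 0 (0%) passed in limma and 0 had an unadjusted p under 0.05.

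At day 2.5, after Wnt activation, Hoxc4 and Hoxc5 had appeared in every library, and Hoxc6, Hoxc8 and Hoxc9 were present at a few reads. Hoxc4 had 84, 66, 2 and 49 reads in Smchd1 wt replicates 1 to 4, at 1.10, 0.68, 0.393 and 1.10 RPKM. In Smchd1 matΔ replicates 1 to 3 it had 68, 96 and 144 reads, at 0.832, 0.864 and 1.99 RPKM. Smchd1 matΔ replicate 3 was the highest and the other libraries of the genotypes overlapped. In that replicate counts on genes made up 29.2% of the implied depth, which lowers its RPKM. This share is not known for the other libraries of the day. Hoxc5 had 77, 50, 1 and 28 reads in Smchd1 wt, at 0.837, 0.428, 0.163 and 0.525 RPKM, and 67, 53 and 143 in Smchd1 matΔ, at 0.681, 0.396 and 1.64 RPKM. Hoxc4 was above Hoxc5 in 7 of 7 libraries. Hoxc6 had 2, 5, 0 and 2 reads in Smchd1 wt and 4, 10 and 21 in the Smchd1 matΔ libraries. Hoxc8 had 9, 4, 0 and 1 against 29, 13 and 21, and Hoxc9 had 5, 5, 0 and 2 against 12, 7 and 9. For Hoxc8 each Smchd1 matΔ library had more reads than each Smchd1 wt library, but the Smchd1 matΔ libraries were also deep (28.2 to 43.29 M reads against 1.984 to 37.78 M), and the levels of the libraries with reads, 0.106 to 0.322 RPKM against 0.0204 to 0.107, overlap at their edge.

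The step from day 2 to day 2.5 could be fitted only where both days had more than 3 reads in a group. In Smchd1 matΔ cells Hoxc4 rose by 3.18 ± 1.05 (log2 RPKM, SE, n = 4 and 3; limma, adjusted p = 0.00623) and Hoxc8 by 3.41 ± 1.05 (adjusted p = 0.0034), while 64.1% of the 39 Hox genes rose in the same comparison. Of the 22 Hox genes with more than 3 reads on each day, 16 rose. Hoxc8 had reads in 1 of the 4 libraries of day 2, so its mean there is mostly the value set by depth, and without the deep replicate 4 of that day its step was 2.43 (adjusted p = 0.00832). Without Smchd1 matΔ day 2.5 replicate 3 the step of Hoxc4 had an adjusted p of 0.0584. In Smchd1 wt cells the Hoxc4 step was 3.12 ± 1.42 (n = 4 and 4; adjusted p = 0.186) and 2.56% of the Hox genes rose. In edgeR on the recovered reads, 26 of 36 Hox genes were called in Smchd1 wt and 28 of 36 in Smchd1 matΔ cells. Without the shallow Smchd1 wt day 2 replicate 4 the Hoxc4 step was 4.30 (limma, adjusted p = 1.16e-05), and on the recovered reads 4.34 (edgeR, adjusted p = 4.58e-05). Without day 2 replicate 1 it was 2.14 (limma, adjusted p = 0.674), and without replicate 3, in which few reads fell on genes, 2.93 (adjusted p = 0.429). For members without reads at day 2 the rise is a lower bound, taken against 3 reads over the group. Hoxc5 was at least 34.9-fold higher in Smchd1 wt and at least 149-fold higher in Smchd1 matΔ cells. In Smchd1 wt cells Hoxc6 was at least 2.01-fold and Hoxc8 at least 3.13-fold higher, and in Smchd1 matΔ cells Hoxc9 was at least 15.9-fold higher. Where 1 to 3 reads were present at day 2, the pooled ratio was 8.06-fold for Hoxc9 in Smchd1 wt (exact 95% interval from 1.19 to 345, counting error only) and 19.8-fold for Hoxc6 in Smchd1 matΔ cells (6.26 to 101). These bounds depend on the pooled depth of day 2, which was larger in Smchd1 matΔ cells, and cannot be compared between genotypes. The difference between genotypes in the Hoxc4 step was 0.06 ± 1.82 (limma interaction, adjusted p = 0.975), with 0 of 39 genes (0%) called and 0 with an unadjusted p under 0.05. It includes the depth-set value of Smchd1 wt day 2 replicate 4, and with 1 library left out it ran from -1.12 to 1.03.

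At day 3 all 5 members had reads in all 8 libraries, with Hoxc4 and Hoxc5 highest and Hoxc9 lowest in most. Hoxc4 lay at 1.25, 5.97, 3.69 and 3.01 RPKM in Smchd1 wt and at 2.27, 2.97, 4.58 and 2.91 in Smchd1 matΔ replicates 1 to 4. Hoxc5 lay at 0.87, 4.05, 6.44 and 4.30 against 2.17, 3.00, 3.24 and 2.98 RPKM. Neither was above the other in more than 4 of 8 libraries. Hoxc8 lay at 0.307, 2.54, 2.34 and 2.04 RPKM in Smchd1 wt and 0.96, 2.40, 0.953 and 0.406 in the Smchd1 matΔ libraries. Hoxc6 lay at 0.134, 1.68, 0.393 and 1.00 against 0.341, 1.90, 1.45 and 0.597 RPKM. Its reads were 17, 152, 2 and 10 in Smchd1 wt and 36, 33, 22 and 5 in Smchd1 matΔ replicates 1 to 4. Hoxc8 was thus above its 3′ neighbour Hoxc6 in 6 of 8 libraries, against the order of the cluster, and below it in Smchd1 matΔ replicates 3 and 4. In those replicates Hoxc8 had 17 and 4 reads against 22 and 5 of Hoxc6, so the order there rests on few reads. Hoxc9 lay at 0.117, 0.252, 0.585 and 0.397 RPKM in Smchd1 wt and 0.32, 0.171, 0.392 and 0.236 in the Smchd1 matΔ libraries, below Hoxc8 in 8 of 8 and below Hoxc6 in 7 of 8. These Hoxc9 levels rest on 15, 23, 3 and 4 reads in Smchd1 wt and 34, 3, 6 and 2 in Smchd1 matΔ replicates 1 to 4. Smchd1 wt replicate 1 had the lowest level of all 5 members among the 8 libraries. The caudal regulators Cdx1 and Cdx2 were also lowest in this library, at 25.9 and 30.5 RPKM against 56.9 to 213 and 55.6 to 128 in the other 3 Smchd1 wt libraries, and their part in the result was not tested.

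From day 2.5 to day 3 Hoxc5, Hoxc6 and Hoxc8 passed the test in both genotypes, with the largest step in Hoxc8 in Smchd1 wt and in Hoxc6 in Smchd1 matΔ cells. Hoxc8 rose by 4.53 ± 0.99 in Smchd1 wt cells (log2 RPKM, SE, n = 4 and 4; limma, adjusted p = 2.98e-04) and by 2.22 ± 0.71 in Smchd1 matΔ cells (n = 3 and 4; adjusted p = 0.0378). Hoxc5 rose by 2.91 ± 0.99 (adjusted p = 0.0125) and 1.88 ± 0.69 (0.0435), and Hoxc6 by 3.16 ± 0.99 (0.00894) and 2.90 ± 0.74 (0.0152). Hoxc4, already present at day 2.5, had differences of 2.00 ± 0.98 (adjusted p = 0.0999) and 1.45 ± 0.68 (0.0794), and Hoxc9 of 1.92 ± 0.99 (0.114) and 1.27 ± 0.68 (0.134). So 3 of 5 members passed in each genotype, against 41% of the 39 Hox genes in Smchd1 wt and 35.9% in Smchd1 matΔ cells, and the median difference was 2.91 over the members and 1.29 over all Hox genes in Smchd1 wt, and 1.88 and 1.31 in Smchd1 matΔ cells. Of the 14 Hox genes called in Smchd1 matΔ cells, 3 had no reads on either day, Hoxc11 and Hoxc12 among them, and the difference of 1.89 of those named (adjusted p = 0.0435) is set by depth alone. Over the 32 genes with more than 3 reads on each day 10 were called and the median was 1.29, and in Smchd1 wt cells 16 of 35 with a median of 1.92. Among the 12 paralogs in the other clusters 8 were called in Smchd1 wt cells (median 2.44) and 5 in Smchd1 matΔ cells (median 1.62). In Smchd1 matΔ cells the 3 calls were lost in a fit over all 12 groups (limma, adjusted p = 0.359 for each), where 0 of 39 Hox genes passed. On the log2(RPKM + 1) scale Hoxc6 lost its call in both genotypes, at 0.66 (adjusted p = 0.0918) and 0.78 (0.115), and Hoxc8 in Smchd1 matΔ cells (0.75, adjusted p = 0.124). On that scale 8 of 39 Hox genes passed in Smchd1 wt and 3 of 39 in Smchd1 matΔ cells. Leaving out 1 library at a time, between 1 and 5 members passed in Smchd1 wt cells, 1 without day 3 replicate 2 or 4 and 5 without day 3 replicate 1. In Smchd1 matΔ cells between 0 and 4 passed, with 0 when day 2.5 replicate 1 or 2 or day 3 replicate 2 or 3 was left out and 4 without day 2.5 replicate 3. Hoxc8 in Smchd1 wt cells passed in each of these fits.

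Day 4, one day after GDF11 was added, had all 5 members in a common range. In Smchd1 wt replicates 1 to 4 Hoxc4 lay at 8.54, 19.5, 6.25 and 2.38 RPKM, Hoxc5 at 11.4, 12.9, 8.14 and 3.96, and Hoxc8 at 7.24, 14.6, 7.21 and 3.83. The members that had trailed reached the same range: Hoxc6 lay at 9.92, 34.3, 13.1 and 4.95 RPKM and Hoxc9 at 8.51, 13.2, 10.1 and 4.50. In Smchd1 matΔ replicates 1 to 4 Hoxc4 lay at 10.1, 6.68, 2.35 and 2.33 RPKM, Hoxc5 at 7.52, 8.08, 2.72 and 3.57, and Hoxc8 at 8.08, 5.99, 2.06 and 2.51. Hoxc6 lay at 7.54, 15.04, 3.01 and 4.97 and Hoxc9 at 6.18, 5.70, 5.56 and 3.82. Smchd1 wt replicate 2 was the highest library for each member and a shallow one (2.679 M reads), and Smchd1 wt replicate 4 was the lowest Smchd1 wt library for each. Hoxc6 was above Hoxc5 in 7 of 8 libraries, above Hoxc8 in 7 and above Hoxc9 in 7, whereas the order of Hoxc4, Hoxc5, Hoxc8 and Hoxc9 changed from library to library. Hoxc4 and Hoxc9 were each above the other in 4 of 8.

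**Figure D2:**
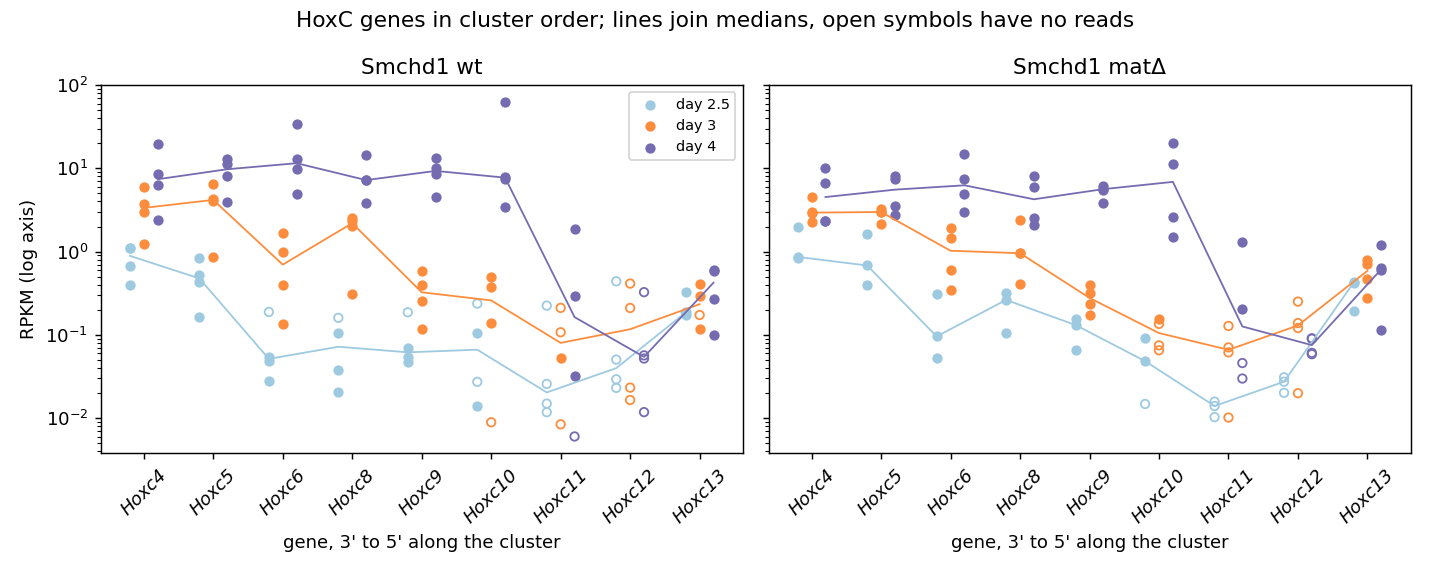
RPKM (log axis) of the HoxC genes in cluster order from Hoxc4 to Hoxc13 at days 2.5, 3 and 4, with Smchd1 wt on the left and Smchd1 matΔ on the right; points are libraries, lines join the medians, and open symbols have no reads. At day 3 Hoxc4 and Hoxc5 lie highest, Hoxc8 lies above Hoxc6 in 6 of 8 libraries and Hoxc9 is low; at day 4 Hoxc4 to Hoxc10 lie in one range and Hoxc11 drops.

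From day 3 to day 4 Hoxc6 and Hoxc9, and Hoxc8 in Smchd1 matΔ cells only, rose past the test, while the difference between genotypes in this step did not pass. Hoxc9 rose by 4.88 ± 1.03 in Smchd1 wt (log2 RPKM, SE, n = 4 and 4; limma, adjusted p = 1.93e-04) and 4.29 ± 0.60 in Smchd1 matΔ cells (n = 4 and 4; adjusted p = 1.27e-04), which is 29.4-fold and 19.6-fold. At day 3 it had 45 reads in all in each genotype. Hoxc6 rose by 4.48 ± 1.07 (adjusted p = 6.43e-04) and 2.89 ± 0.75 (0.00763). Hoxc8 had a difference of 2.40 ± 1.05 (adjusted p = 0.076) in Smchd1 wt cells and rose by 2.03 ± 0.73 (0.0444) in Smchd1 matΔ cells. Hoxc4 and Hoxc5 differed by less than the test could call, by 1.23 ± 1.05 (0.458) and 1.40 ± 1.04 (0.401) in Smchd1 wt and 0.51 ± 0.68 (0.665) and 0.81 ± 0.63 (0.453) in Smchd1 matΔ cells. Thus 2 of 5 members passed in Smchd1 wt against 30.8% of the Hox genes, and 3 of 5 in Smchd1 matΔ cells against 33.3%. Hoxc6 and Hoxc9 passed in both genotypes in each fit without 1 library and in each other alternative that was run. Hoxc8 in Smchd1 matΔ cells lost the call without day 3 replicate 1, 3 or 4 or day 4 replicate 1 or 2, with the replicate number as a block (limma, adjusted p = 0.0683) and in a fit over all 12 groups (0.183), and in Smchd1 wt cells it gained one without day 4 replicate 4 (adjusted p = 0.0362). The genotypes were not shown to differ in these steps: 0 of 5 members and 0 of 39 Hox genes (0%) passed in the limma interaction, an alternative added after seeing the data, from day 2.5 to day 3 and from day 3 to day 4, with 0 and 1 genes at an unadjusted p under 0.05.

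**Figure D3:**
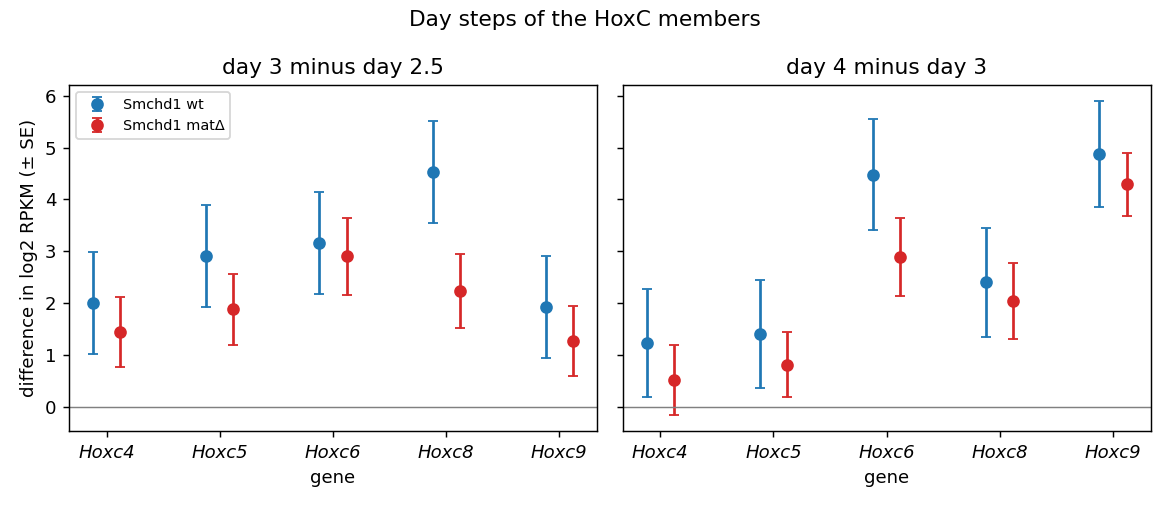
Difference in log2 RPKM between consecutive days for each member, with bars of 1 SE from limma; blue is Smchd1 wt and red is Smchd1 matΔ. Hoxc8 has the largest Smchd1 wt step into day 3 (4.53), and Hoxc6 and Hoxc9 have the largest Smchd1 wt steps into day 4 (4.48 and 4.88).

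The change in composition was also measured within each library, where depth cancels, as the log2 ratio of a member to Hoxc4. The ratio of Hoxc9 went from -3.39 ± 0.85 (SD, n = 4) at day 3 to 0.26 ± 0.67 at day 4 in Smchd1 wt cells. In Smchd1 matΔ cells it went from -3.53 ± 0.53 to 0.25 ± 0.88. The ratio of Hoxc6 went from -2.47 ± 0.88 to 0.79 ± 0.40 and from -1.83 ± 0.90 to 0.55 ± 0.74. For both genes the day 3 and day 4 libraries did not overlap in either genotype (two-sided exact test by permutation, p = 0.0286, which is the lower limit for groups of 4, and 0.0457 after Benjamini-Hochberg adjustment over 8 comparisons). Hoxc8 moved from -1.12 ± 0.67 to 0.06 ± 0.49 in Smchd1 wt (exact permutation test, p = 0.0286, adjusted 0.0457) and from -1.66 ± 1.12 to -0.14 ± 0.18 in the Smchd1 matΔ libraries (exact permutation test, p = 0.0571, adjusted 0.0762). The ratio of Hoxc5 differed by 0.17 in Smchd1 wt (exact permutation test, p = 0.914) and by 0.30 in Smchd1 matΔ cells (exact permutation test, p = 0.286). These ratios were chosen after the values were seen, and those of Hoxc9 at day 3 rest on as few as 2 reads a library.

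Over the whole course Hoxc4 rose by 7.64 ± 0.93 in Smchd1 wt cells (day 4 minus day 0, log2 RPKM, SE, n = 4 and 4; limma, adjusted p = 4.08e-10), where 84.6% of the Hox genes rose. Among Hox genes with more than 3 reads on each day, 20 of 23 rose in Smchd1 wt and 10 of 14 in Smchd1 matΔ cells. For members without reads at day 0 the rise is a bound against 3 reads over the group. It was at least 445-fold for Hoxc5 and for Hoxc6, 351-fold for Hoxc8 and 362-fold for Hoxc9 in Smchd1 wt cells. In Smchd1 matΔ cells, where 79.5% of the Hox genes rose, it was at least 202-fold for Hoxc4, 237-fold for Hoxc5 and 245-fold for Hoxc6. Hoxc8 had 1 read and Hoxc9 had 2 at day 0 there, and their pooled ratios were 571-fold (exact 95% interval from 102 to 22600) and 282-fold (77.8 to 2330). As a share of the summed RPKM of all Hox genes with reads, the members made up a median of 2.15% in Smchd1 wt and 4.41% in the Smchd1 matΔ libraries at day 2.5. The libraries of that day ranged from 0.963% to 4.66% and from 1.85% to 7.43%, so the genotypes overlapped. The medians were 6.75% and 8.17% at day 3, and 15.7% and 15.6% at day 4, where the libraries lay between 12.7% and 18.4%.

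The comparison of the genotypes asks whether loss of maternal SMCHD1 shifts the members during differentiation, and none of the 5 differed past the test at days 2.5, 3 or 4. At day 2.5 all 5 were higher on average in Smchd1 matΔ cells, by 0.58 ± 0.82 for Hoxc4, 0.87 ± 0.82 for Hoxc5, 0.92 ± 0.82 for Hoxc6, 1.79 ± 0.82 for Hoxc8 and 0.54 ± 0.82 for Hoxc9 (log2 RPKM, SE, n = 3 and 4; limma, adjusted p from 0.563 to 0.716). Hoxc8 had the only unadjusted p under 0.05 among them (0.0296), and without Smchd1 wt day 2.5 replicate 3, in which it had no reads, its adjusted p was 0.0658. Few reads fell on genes in Smchd1 matΔ day 2.5 replicate 3, which lowers its RPKM, and this share is not known for the other libraries of the day. Without that library the differences were 0.17 for Hoxc4, 0.31 for Hoxc5, 0.21 for Hoxc6, 0.42 for Hoxc9 and 1.62 for Hoxc8 (limma, adjusted p from 0.871 to 0.894). The median over the members was 0.865 and over all 39 Hox genes 0.541. At day 3 the differences were 0.03 ± 0.95 for Hoxc4, -0.16 for Hoxc5, 0.67 for Hoxc6, -0.52 for Hoxc8 and -0.11 for Hoxc9 with the same SE (n = 4 and 4; limma, adjusted p from 0.985 to 0.991). Without Smchd1 wt replicate 1, the low library of that day, Hoxc8 differed by -1.24 and Hoxc4 by -0.40. At day 4 all 5 were lower on average in Smchd1 matΔ cells, by -0.69 ± 0.87 for Hoxc4, -0.75 ± 0.76 for Hoxc5, -0.93 ± 0.84 for Hoxc6, -0.88 ± 0.79 for Hoxc8 and -0.69 ± 0.71 for Hoxc9 (n = 4 and 4; limma, adjusted p = 0.649 for each). Without Smchd1 wt replicate 2, the highest library, Hoxc4 differed by -0.20, Hoxc6 by -0.43 and Hoxc8 by -0.55. Without Smchd1 wt replicate 4, the lowest Smchd1 wt library, Hoxc4 differed by -1.21. Over all fits without 1 library the differences stayed below 0, from -1.36 to -0.20. The median was -0.751 over the members and -0.751 over all Hox genes. On each of the 3 days 0 of 39 genes (0%) passed in limma, with 2, 0 and 0 at an unadjusted p under 0.05, and edgeR on the recovered reads also called 0.

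**Figure D4:**
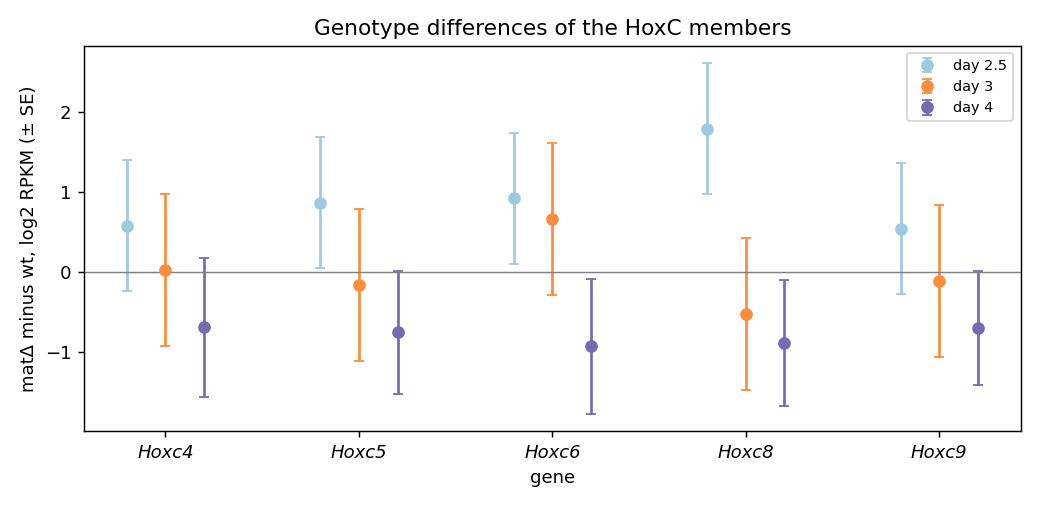
Difference in log2 RPKM between genotypes (Smchd1 matΔ minus Smchd1 wt) for each member at days 2.5, 3 and 4, with bars of 1 SE from limma. The 5 differences are above 0 at day 2.5 and below 0 at day 4, and none passed the test.

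The 12 genes of the same paralog groups in the other clusters give the setting of these levels. RPKM values were compared between genes within each of the 8 libraries of day 4. Hoxc4 was above Hoxa4 and Hoxb4 in 8 of 8 and above Hoxd4 in 1 of 8. Hoxc5 was above Hoxa5 and Hoxb5 in 8 of 8, and Hoxc6 above Hoxa6 and Hoxb6 in 8 of 8. At the posterior end the order turned: Hoxc8 was below Hoxd8 in 8 of 8 and above Hoxb8 in 4, and Hoxc9 was below Hoxb9 and Hoxd9 in 8 of 8 and above Hoxa9 in 1. Hoxc9 ranged from 4.50 to 13.2 RPKM in Smchd1 wt and from 3.82 to 6.18 in the Smchd1 matΔ libraries, whereas Hoxb9 ranged from 17.5 to 39.2 and from 12.5 to 21.5. Hoxc6 against Hoxb6 changed places with time, from below in 7 of 7 libraries at day 2.5 and 8 of 8 at day 3 to above in 8 of 8 at day 4. From day 3 to day 4 the paralogs had 3 of 12 genes past the test in Smchd1 wt and 4 of 12 in Smchd1 matΔ cells, with a median difference of 1.20 and 0.762 against 2.40 and 2.03 over the members. The paralog medians cover unlike genes. In Smchd1 wt cells Hoxd8 went from a median of 1.715 to 26.9 RPKM, Hoxa9 from 1.05 to 19.5 and Hoxd9 from 2.08 to 21.2. Hoxb8 went from 8.76 to 7.2 and Hoxb9 from 15.5 to 27.4. Hoxa6 had at most 2 reads a library at day 3.

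**Figure D5:**
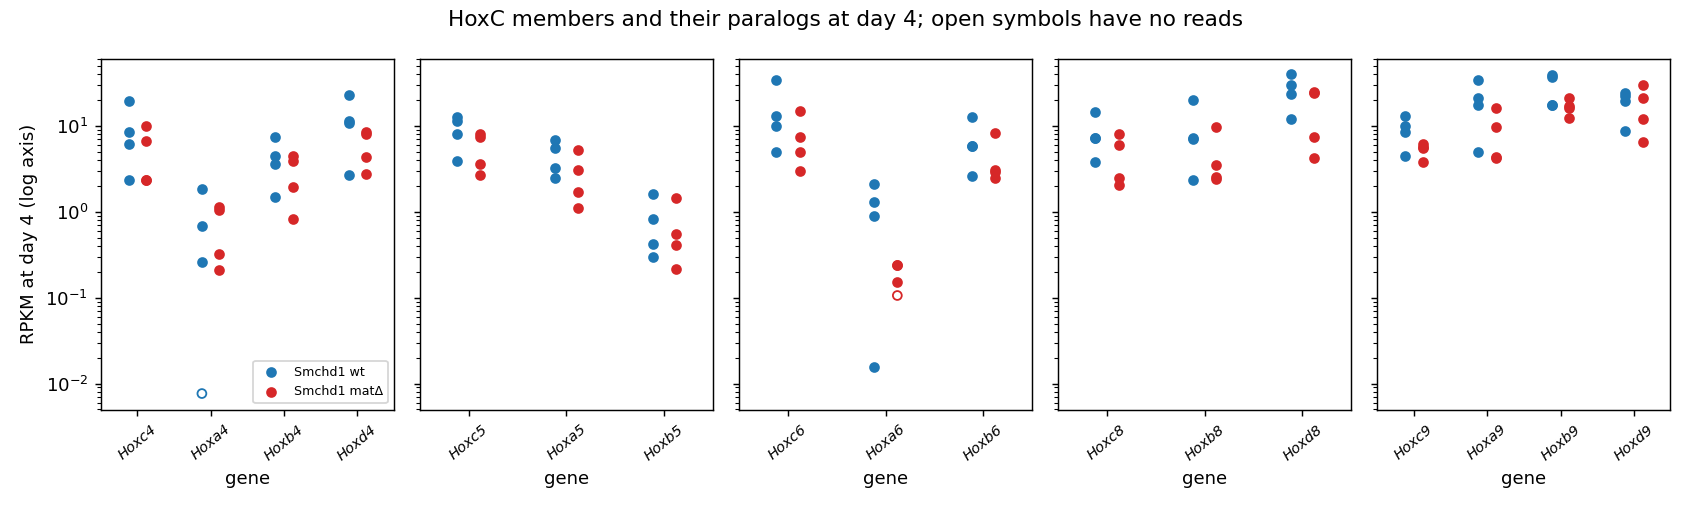
RPKM at day 4 (log axis) of each member and its paralogs in the HoxA, HoxB and HoxD clusters; points are libraries, blue for Smchd1 wt and red for Smchd1 matΔ, and open symbols have no reads. Hoxc5 and Hoxc6 lie above their paralogs in 8 of 8 libraries, and Hoxc9 lies below Hoxb9 and Hoxd9 in 8 of 8.

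On the 5′ side of the members, Hoxc10 went with Hoxc9 at the last step, while Hoxc11 had reads in 5 of 8 libraries of day 4 and Hoxc12 in none. Hoxc10 had 15 reads in the 4 Smchd1 wt and 13 in the 4 Smchd1 matΔ libraries of day 3, and 3.43 to 63.2 RPKM and 1.51 to 20.3 RPKM at day 4. It rose by 6.43 ± 1.16 (limma, adjusted p = 1.52e-05) and 5.76 ± 0.83 (adjusted p = 1.27e-04). Hoxc11 had 21 and 31 reads in all at day 4 and reached 1.85 RPKM in Smchd1 wt replicate 2 and 1.29 RPKM in Smchd1 matΔ replicate 2. Hoxc13, the 5′-most gene, did not follow the order: it had reads from day 0 on (42 and 16 in all) and lay at day 4 at 0.099 to 0.607 RPKM in Smchd1 wt and at 0.113 to 1.18 RPKM in Smchd1 matΔ cells. Over the 12 group means of log2(RPKM + 1), among 72 other genes of the log2 RPKM tables, the pattern of Hoxc4 was most like Hoxb3, Hoxc5 and Hoxb9 (Pearson r of 0.995, 0.994 and 0.993). That of Hoxc5 was most like Hoxb6, Hoxb4 and Hoxa3 (0.999, 0.998 and 0.997), and that of Hoxc6 most like Hoxa9, Hoxd3 and Hoxd8 (0.997, 0.996 and 0.992). Hoxc8 was most like Hoxd4, Hoxd8 and Hoxd9 (0.999, 0.985 and 0.985), and Hoxc9 most like Hoxc10, Hoxd10 and Hoxd3 (0.997, 0.994 and 0.993). These group means share libraries and depth and describe the time course only.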

How the data were processed

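Reads were trimmed with Trim Galore 0.4.4 and mapped with HISAT2 2.0.5 to GRCm38.p6, per the labels. The authors quantified genes in SeqMonk and deposited 2 tables of log2 RPKM, covering the Hox genes and the differentiation factors, and raw read counts per gene for 35591 genes. The labels name a stranded and a non-stranded kit, so reads of a gene and of an antisense partner cannot be told apart. The members and the gene lists were chosen with earlier results of these data known. Log2 RPKM values were tested with limma 3.58.1 over the 39 Hox genes of the libraries compared, and counts of the 2i + LIF lines with edgeR 4.0.16 (TMM scaling, default expression filter, quasi-likelihood test), in R 4.3.3, each with Benjamini-Hochberg adjustment at 0.05. DESeq2 1.42.0 was an alternative, and Python 3.11.15 with scipy 1.17.1 was used for the rest. Reads were recovered with GENCODE M21 exon lengths, by searching for the depth at which values become whole. Depth set how firmly genes without reads could be read. A member was given a test value where each group had more than 3 reads. Named genes were the members, Hoxc10 to Hoxc13, their 12 paralogs, the 3 genes most like each member and Smchd1. Hotair had 0 to 3 counts in the 2i + LIF lines, and Mir196a-2 and Mir615 were not analysed here. Of the other marker and gene lists, Pou5f1, Sox2, Tbx3, T, Cdx1 and Cdx2 are given and the rest are not given here. Among 12 comparisons, replicate numbers paired the libraries in 3 (every same-numbered pair correlated above 0.1 over the 39 genes: genotypes at days 2 and 4, Smchd1 matΔ day 2.5 to 3). Of the 45 libraries, 44 factor columns had the depth of the Hox column of the same name, and Smchd1 wt day 2 replicate 4 did not. The tests were checked on simulated data with larger differences than those between genotypes here. For limma the simulated spread was also below that of many groups, so the check does not show what these tests can detect.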

Additional observations from a re-analysis of the deposited data

Results flagged for a closer look

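At day 3, Hoxc8 in Smchd1 wt replicate 1 (0.307 RPKM) lay far below the other 3 Smchd1 wt libraries, at 2.04 to 2.54 RPKM. Its gap to the nearest was 0.897 of the range of the group on the log2 scale, over Dixon's limit for 4 samples. It was the only such case in 25 groups tested (5 members in 5 groups of 4 libraries), and chance gives about 1 such case in 20 groups. The library held 46 Hoxc8 reads at an implied depth of 52.83 M reads (M, megareads), so the low value does not rest on a few reads.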

How the results depend on the processing

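Depth limits the members at days 0 to 2, where most values hold no reads. Of the values and counts under each alternative, 498 values and 200 counts of members called stayed on the same side, 34 values lost a call, 13 gained one and 24 of members that were not called changed sign; 14 counts moved by over 1.5 times. In the count of members called, the Smchd1 wt step from day 2 to day 2.5 moved from 0 to 1 (of 1 tested) on recovered reads and in 1 fit over the 12 groups. Over all Hox genes the calls of this step moved with it, from 1 of 39 to 26 of 36 and 9 of 39. The Smchd1 matΔ step from day 2.5 to day 3 moved from 3 to 1 with log2(RPKM + 1) and to 0 in 1 fit over the 12 groups. Over all Hox genes it moved from 14 of 39 to 3 of 39 and 0 of 39. With 1 library left out the counts of members called ran from 0 to 1 for Smchd1 wt and 1 to 2 for Smchd1 matΔ from day 2 to day 2.5. They ran from 1 to 5 and 0 to 4 from day 2.5 to day 3, and from 2 to 3 in both from day 3 to day 4. The share over all Hox genes was not counted in these fits. The causes were not tested.

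With the replicate number as a block, the Smchd1 wt step from day 2.5 to day 3 had 5 members past the test in place of 3. Over all Hox genes 18 of 39 passed in that step in place of 16. Hoxc8 lost its Smchd1 matΔ call from day 3 to day 4 (adjusted p = 0.0683 in limma), and no other call of a member changed. Where numbers did not pair the libraries, same-numbered correlations ran from -0.332 to 0.727.

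Signs turned for members without a call. For the genotype difference at day 2, Hoxc4 was -0.089 with log2(RPKM + 1) and -1.01 in the count columns as named. At day 3 Hoxc4 was -0.015 with log2(RPKM + 1) and -0.13 on recovered reads, and with only line 1 Hoxc8 was 0.087 and Hoxc9 0.10. The Hoxc4 difference in the step from day 2 to day 2.5 was -1.50 on recovered reads. Leaving out 1 library, the genotype differences ran from -0.46 to 1.702 for Hoxc4 at day 2, and at day 3 from -0.40 to 0.36 for Hoxc4, -0.78 to 0.19 for Hoxc5, -0.011 to 1.21 for Hoxc6 and -0.54 to 0.23 for Hoxc9. The Hoxc4 difference in the step ran from -1.12 to 1.03, and its 2i + LIF difference from -0.17 to 0.083. The count columns as named gave no genotype value for any member at day 3, for Hoxc6, Hoxc8 and Hoxc9 at day 2.5 or for Hoxc9 at day 4, and were not run for the steps. These columns held the Hox reads of the library of that name in 7 of 45 libraries. Their values are part of the tally above and cannot show how the results depend on processing.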

Other observations

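Hoxc4 had more reads in the ground state than at day 0 of the time course. In the 6 lines in 2i + LIF it lay at 0.832 to 1.24 counts per kilobase of exon and megaread counted. At day 0 in DME + LIF it had 6 reads in the 4 Smchd1 wt libraries and 0 in the 3 of Smchd1 matΔ, and its highest level was 0.0983 RPKM. Hoxc12 went the same way, with 16 to 180 counts in the 2i + LIF lines against 1 read in each genotype at day 0. Hoxc13 had 174 to 1077 counts in the lines and 42 and 16 reads at day 0. The lines were sequenced with paired-end and the time course with single-end reads, in separate cultures, and their values are scaled to different totals, so medium and library type cannot be told apart and no test was made.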
